A study of Mus musculus with 12 samples.

Results

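The cytosolic ribosomal protein genes were examined in pericontusional brain tissue of mice after traumatic brain injury (TBI). Members were chosen by symbol alone, as the Rpl and Rps genes of the cytosolic large and small subunits, the 3 stalk genes Rplp0, Rplp1 and Rplp2, and Rpsa, without the copies whose symbol ends in -ps. The rule found 90 of the 55638 gene identifiers over both deposited tables, of which 84 were annotated as protein coding and 6 as pseudogenes (Rps3a2, Rps3a3, Rps4l, Rpl6l, Rpl32l and Rps12l1). The 2018 table listed 88 of them, without Rpl10l and Rps12l1, and the 2022 table listed all 90. After a filter on low counts 86 were tested in 2018, without Rpl32l and Rpl39l, and 83 in 2022, without Rpl32l, Rpl39l, Rpl3l, Rpl6l, Rpl10l, Rps3a2 and Rps3a3. The group was proposed with both comparisons of these data known. The members' differences are therefore given as a description, without p-values.

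The study followed adult male C57BL/6J wild-type mice after controlled cortical impact, in which a piston strikes the exposed cortex. In the libraries labelled 2018, 3 TBI mice taken 7 days after the impact were set against 3 sham mice, which had the surgery without the impact. In the libraries labelled 2022, 3 TBI mice given zileuton, an inhibitor of the leukotriene-forming enzyme 5-lipoxygenase, were set against 3 TBI mice. Zileuton was injected into the peritoneum at 10 mg per kg per day in corn oil, and the 2022 TBI mice, which the labels call only TBI, were taken as the vehicle group of the study. The source labels of 2 zileuton mice gave 8 and 9 days while their library names gave 7 days. Each library came from 1 mouse as far as the labels show, and poly-A RNA was sequenced. The 2022 columns named the group but not the mouse, so those libraries carry the letters A to C.

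Ribosomal proteins fold onto ribosomal RNA to build the large and the small subunit of the ribosome, the machine that reads messenger RNA and joins amino acids. Their genes are spread over the genome, are expressed in every cell and are short. Most of their messenger RNAs start with a C followed by a run of pyrimidines, the terminal oligopyrimidine (TOP) motif, through which mTOR signalling sets how much of each is translated. They have also left many processed pseudogenes in mammalian genomes, and reads from a gene and a near-identical copy cannot be told apart with certainty.

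The start region of 8 members is printed because the TOP motif is the sequence the family is known for. Each window runs from 10 bases before to 20 bases after the gene's first listed start in the RefSeq promoter table (GRCm38.p6). It is given on the gene's strand, 5′ to 3′. Capitals mark a run of at least 7 pyrimidines that opens with a C. The first 6 genes hold such a run, and the printed window of Rps6 spans chr4:86857348-86857377, minus strand.
Rps6: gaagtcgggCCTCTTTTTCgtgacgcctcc
Rps9: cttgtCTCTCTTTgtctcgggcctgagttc
Rpl28: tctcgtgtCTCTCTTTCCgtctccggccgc
Rpl18: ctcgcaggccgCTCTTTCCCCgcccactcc
Rps27: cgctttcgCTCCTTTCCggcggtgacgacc
Rpl22l1: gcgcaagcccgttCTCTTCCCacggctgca
Rpl7l1: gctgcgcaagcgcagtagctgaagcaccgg
Rpl3l: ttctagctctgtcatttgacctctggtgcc
The tracts of Rps6 and Rpl28 were 10 bases long and that of Rps9 was 8 bases. The last 2 windows, of the paralogues Rpl7l1 and Rpl3l, held none.

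Of the 90 members, 65 were matched by symbol to the promoter table. A pyrimidine tract lay in the start window of 27 of them (41.5%), against 11.7% of all 27025 genes in the table. The motif CGGAAG, the core letters bound by ETS factors, searched on both strands from 250 bases before to 50 after the start, was found in 43 members (66.2%) and in 17.2% of all genes. GCCATNTT, the core of YY1 sites, was found in 12 members (18.5%) and 6.23% of all genes on either strand of the same 300 bases. TATAAA was searched from 45 to 16 bases before the start and was found in 1 member (1.54%) and 2.36% of all genes. Only the first listed start of each gene was read, so a tract or motif at another start would be missed. A match describes letters in a window and not a bound site.

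The members were among the most abundant transcripts of this tissue. In the 2018 libraries, values in FPKM, fragment counts scaled to transcript length and library size, which allow for transcript length, had a median of 97.3 over members, and 44 of the 88 listed members reached 100 FPKM. Summed over members the level was 10355, 10613 and 10083 FPKM in sham 1 to 3 and 12969, 13169 and 15688 FPKM in TBI 1 to 3. Every TBI sum was above every sham sum, and members made up 4.16% of all summed FPKM. Rplp1, a stalk protein, had the highest mean at 1251 FPKM. It was followed among the small-subunit genes by Rps15 at 575 FPKM, Rps29 at 487 FPKM and Rps21 at 398 FPKM. The leading large-subunit genes were Rpl41 at 506 FPKM, which encodes a peptide among the smallest in the cell, Rpl36 at 506 FPKM and Rpl38 at 418 FPKM. In the 2022 libraries, given in TPM, also scaled to length and library size, Rplp1 again had the highest mean, at 2780 TPM, and members made up 5.95% of all TPM. The sums over members were 59993, 58163 and 65981 TPM in TBI A to C and 61437, 55750 and 55950 TPM in zileuton A to C, and the groups overlapped. At the other end, 5 members in 2018 lay under 1 FPKM and 7 in 2022 lay under 1 TPM.

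The labelled tissue was checked against marker lists of neurons, astrocytes, oligodendrocytes, microglia and red blood cells, and no marker was listed at 0 in either table. Library totals ran from 42929900 to 48684700 counts in 2018 and from 27845600 to 35453300 counts in 2022. Members made up 1.38% to 2.37% of these counts, so the counting error of an abundant member was small beside the spread between mice.

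TBI was compared with sham to ask how the transcripts of the translation machinery stood 7 days after injury. Ribosomal protein transcripts were higher after TBI across both subunits, with a median fold of 1.30 over the 86 members that passed the filter on low counts (log2 fold change 0.38, interquartile range 0.25 to 0.55). In log2 CPM (counts scaled to library size), the mean over members was 6.78, 6.81 and 6.72 in sham 1 to 3 and 7.16, 7.07 and 7.34 in TBI 1 to 3. The groups did not overlap, and the difference of 0.42 was set beside standard deviations between mice of 0.05 in sham and 0.14 in TBI (n = 3 each). As a share of all counts, members took 1.55%, 1.58% and 1.50% in sham and 1.95%, 1.98% and 2.37% in TBI. TBI 3 stood highest and sham 3 lowest, and 77 of the 86 members had their highest value in TBI 3. In bulk tissue, fewer cells of a type and less RNA per cell cannot be told apart.

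**Figure D1:**
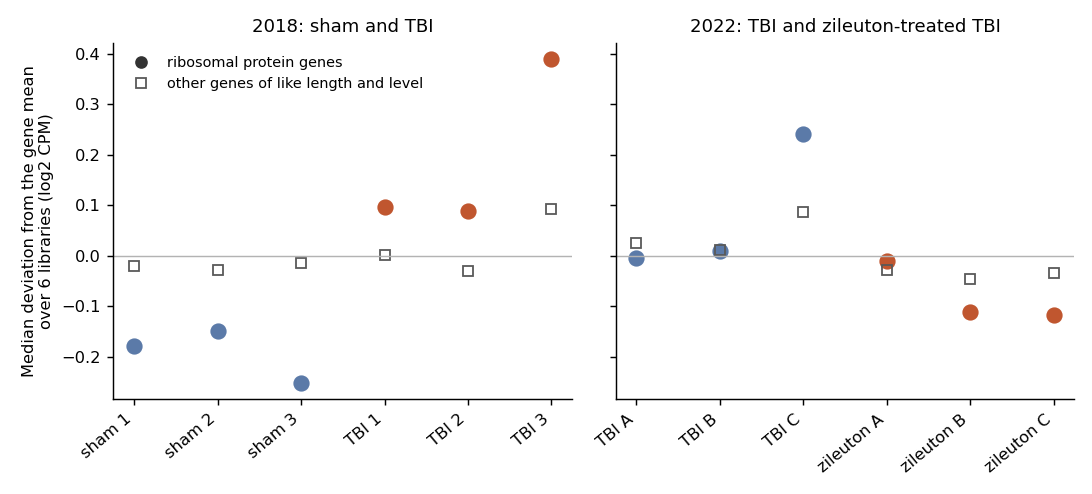
Each filled point is the median over ribosomal protein genes of the deviation from the gene's own mean over 6 libraries, in log2 CPM, with 1 position per library (blue, sham in 2018 and TBI in 2022; orange, TBI in 2018 and zileuton in 2022), and open squares give the same for other genes of like length and level. Members lay at 0.39 in TBI 3 and 0.24 in TBI C, where the other genes lay at 0.09 in both.

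Counted gene by gene, 81 of the 86 tested members were higher after TBI and 5 were lower. By edgeR's quasi-likelihood test with Benjamini-Hochberg adjustment over all 19536 genes, 54 members (62.8%) passed an adjusted p of 0.05 with a higher level, against 16.8% of all genes. In the other direction 0 members passed, against 11.2% of all genes. The 3 TBI values lay above the 3 sham values for 67 members (77.9%), against 24.6% of all genes, and below them for 0 members, against 19.8%. The members passing the threshold spanned log2 fold changes from 0.30 (Rpl36a) to 1.08 (Rps27l). All of these counts come from the contrast that was known when the group was proposed. Without sham 3 the number passing was 28, and without TBI 3 it was 45, with a median log2 fold change of 0.29. Shares of all genes in these smaller fits are not reported here.

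The subunits were alike in direction. Of the 48 tested large-subunit genes 44 were higher and 29 passed the threshold, with a median log2 fold change of 0.36. Of the 35 small-subunit genes 34 were higher and 23 passed, with a median of 0.45. The difference between the subunits was not tested. All 3 stalk genes were higher, and 2 of them passed.

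Among the small-subunit genes, Rps27l had the largest fold change of the members that passed the threshold. It encodes a close relative of Rps27 and is known as a target of the transcription factor p53. Its level was 16.4, 15.5 and 14.5 CPM in sham 1 to 3 and 32.2, 25.8 and 40.5 CPM in TBI 1 to 3. Every TBI mouse was above every sham mouse, with a log2 fold change of 1.08 ± 0.16 (SE, n = 3 per group). Rps27l is annotated at chr9:66946086-66949516 (GRCm38) and had no near-identical copy by the limits given below. Reads shared with less similar sequences were not checked.

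Rps9 encodes a protein that joins the small subunit early in assembly. It was measured at 172, 181 and 162 CPM in sham and 285, 280 and 334 CPM in TBI. The TBI mice were all higher by over 50 CPM, and the log2 fold change was 0.80 ± 0.09. Rps28, a small protein near the exit site for transfer RNA, was at 93.2, 93.9 and 93.8 CPM in sham and 142, 145 and 180 CPM in TBI. The 3 sham values differed by less than 1 CPM, and the log2 fold change was 0.73 ± 0.10.

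Transcripts of small-subunit proteins chosen for their known roles were also higher in TBI. Rps6, the substrate of S6 kinase downstream of mTOR, had 252, 243 and 232 CPM in sham and 303, 312 and 372 CPM in TBI (log2 fold change 0.44 ± 0.09). Rps3, which also takes part in DNA repair and in NF-kappaB signalling, had 336, 332 and 302 CPM in sham and 406, 365 and 471 CPM in TBI (0.36 ± 0.10). Rps19, the gene most often mutated in Diamond-Blackfan anaemia, had 179, 174 and 164 CPM in sham and 215, 213 and 290 CPM in TBI (0.47 ± 0.12). In none of these genes did the groups overlap. Rps27a, made as a fusion with ubiquitin, had 69.3, 68.1 and 65.0 CPM in sham and 107, 82.1 and 107 CPM in TBI (0.55 ± 0.11). Rpsa, also known as the laminin receptor, had 407, 402 and 360 CPM in sham and 445, 473 and 568 CPM in TBI (0.35 ± 0.10). The pattern of a tight sham group and a highest value in TBI 3 recurred in most of these genes.

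Among the most abundant small-subunit genes the differences were smaller for Rps15 and Rps21 than for Rps29. Rps15, in the head of the small subunit, had 337, 368 and 316 CPM in sham and 362, 353 and 436 CPM in TBI (log2 fold change 0.17 ± 0.10). The groups overlapped, and it did not pass the threshold. Rps21 had 297, 309 and 299 CPM in sham and 325, 323 and 381 CPM in TBI (0.19 ± 0.08), without overlap but also without passing. Rps29, a zinc-finger protein of the small subunit, had 274, 269 and 285 CPM in sham and 385, 373 and 433 CPM in TBI (0.53 ± 0.08), and passed.

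Of the large-subunit genes, Rpl18 had the highest log2 fold change, 0.77 ± 0.11. Its values were 137, 143 and 137 CPM in sham and 216, 211 and 282 CPM in TBI. Rpl5 and Rpl11, which bind ribosomal RNA together and can block the p53 ligase Mdm2, moved alike. Rpl5 had 215, 199 and 199 CPM in sham and 263, 248 and 301 CPM in TBI, and Rpl11 had 218, 224 and 203 CPM in sham and 273, 256 and 328 CPM in TBI. Both had a log2 fold change of 0.41, with standard errors of 0.09 and 0.10, and in both the groups did not overlap.

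The 3 large-subunit genes with the highest FPKM did not overlap between groups. Rpl41 was at 512, 539 and 463 CPM in sham and 620, 585 and 824 CPM in TBI (log2 fold change 0.42 ± 0.13). Rpl36 was at 169, 175 and 163 CPM in sham and 196, 209 and 249 CPM in TBI (0.37 ± 0.10). Rpl38, known for its part in translating Hox messenger RNAs, was at 196, 203 and 209 CPM in sham and 236, 237 and 276 CPM in TBI (0.30 ± 0.08). All of them passed the threshold. Rpl10, which joins the large subunit late and in the cytoplasm, was at 213, 221 and 206 CPM in sham and 296, 280 and 367 CPM in TBI (0.56 ± 0.11).

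The stalk recruits the GTP-binding factors of translation to the large subunit, and its genes differed in size of change. Rplp0, the base of the stalk, was at 209, 223 and 203 CPM in sham and 330, 331 and 443 CPM in TBI (log2 fold change 0.80 ± 0.12). Rplp2 was at 129, 149 and 141 CPM in sham and 170, 167 and 187 CPM in TBI (0.33 ± 0.08). Rplp1, the most abundant member, was at 592, 616 and 538 CPM in sham and 611, 630 and 757 CPM in TBI (0.19 ± 0.10). Only for Rplp1 among these genes did the groups overlap.

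**Figure D2:**
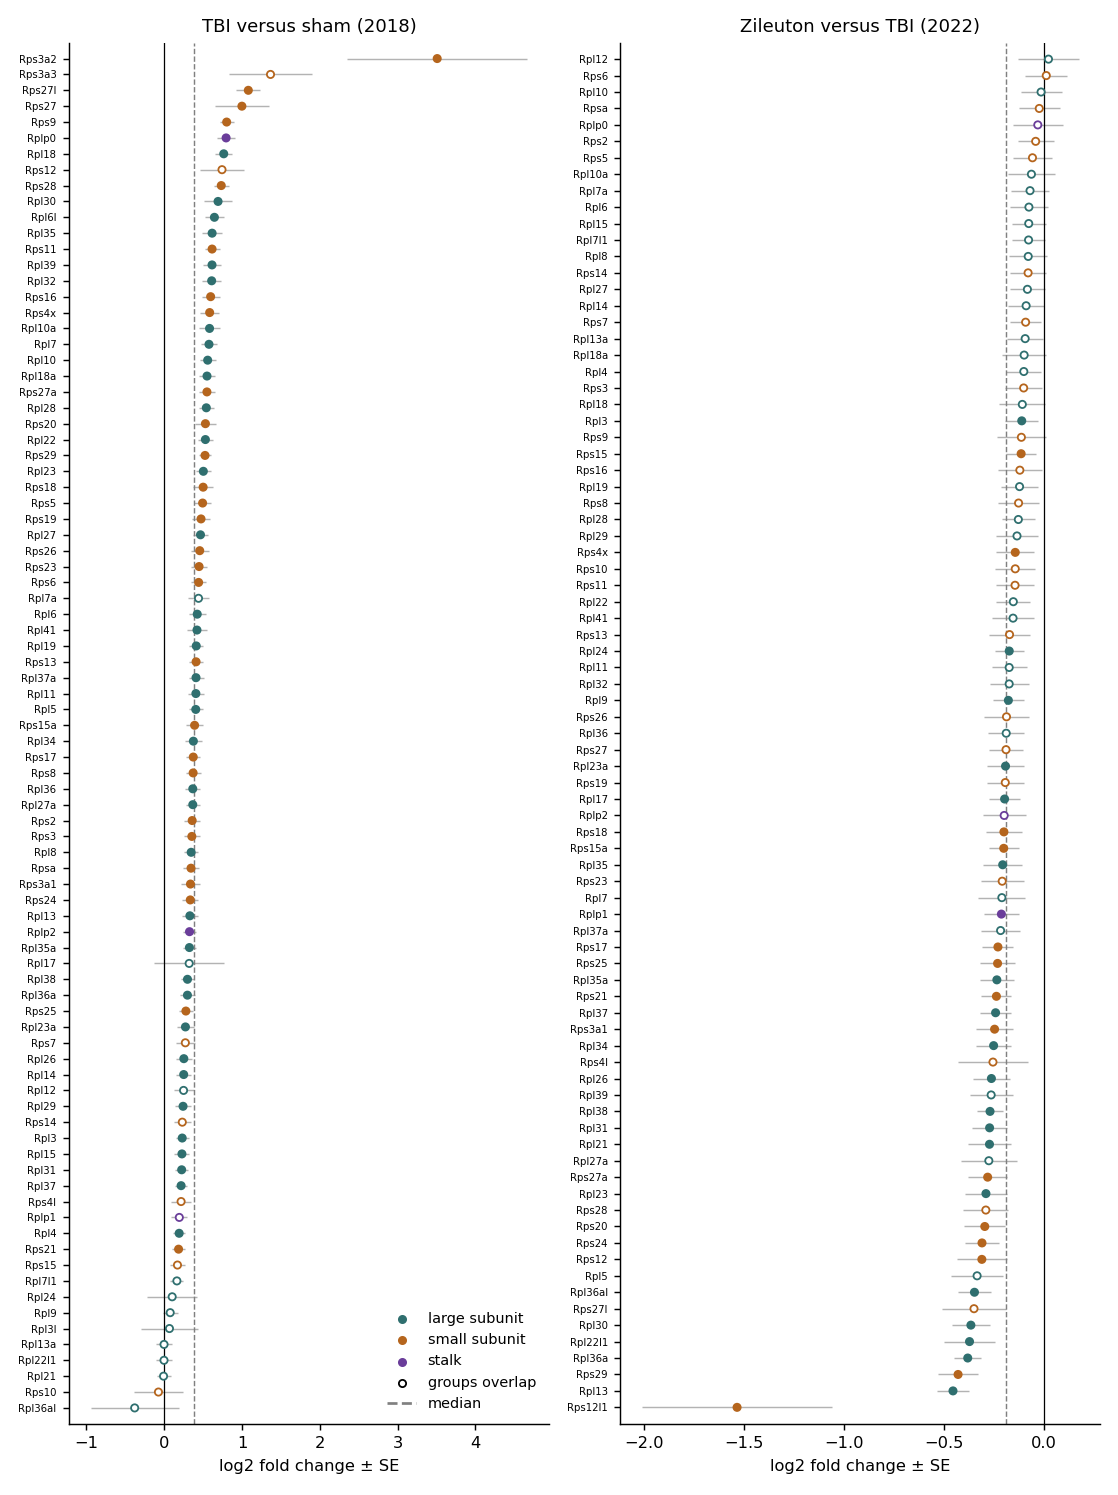
Each point is the log2 fold change of 1 tested ribosomal protein gene with its standard error, ordered by size, for TBI versus sham (left) and zileuton versus TBI (right), coloured by subunit, and the dashed line is the median (0.38 and -0.19). Open points mark genes whose 2 groups of 3 mice overlapped, and 81 of 86 genes lie above 0 on the left and 81 of 83 below 0 on the right.

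The 5 lowest members in this comparison were Rpl36al, Rps10, Rpl21, Rpl22l1 and Rpl13a, with a log2 fold change of -0.38 for Rpl36al and between -0.07 and 0 for the others, and none passed the threshold. With library totals or limma, Rpl13a and Rpl21 lay above 0. Rpl36al was at 0.13 to 0.44 CPM in every 2018 library, Rps10 at 1.44 to 3.04 CPM and Rpl13a at 21.1 to 24.7 CPM. Another annotated gene on the same strand covers part of the exons of each of them, and their 2022 levels were far higher. Rpl13a was at 22.9 CPM in the 2018 TBI mice and at 374 CPM in the 2022 TBI mice, as means of 3 scaled to library totals. Of the 85 members at 1 CPM or more in either batch, 51 were within 2-fold between the TBI groups of the batches and 9 were over 5-fold apart. Levels were therefore compared only within a batch.

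Rpl22l1, the paralogue of Rpl22, differed from its partner. Rpl22l1 was at 37.8, 33.4 and 33.8 CPM in sham and 32.4, 33.5 and 39.0 CPM in TBI, with overlapping groups. Rpl22 was at 107, 106 and 107 CPM in sham and 150, 137 and 175 CPM in TBI (log2 fold change 0.53 ± 0.09). Per length, Rpl22l1 made up 28.2% of the pair's FPKM in 2018 and 22.6% of its TPM in 2022.

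The other paralogues were minor partners. Rps27l made up 13.5% of its pair with Rps27 in FPKM, Rpl7l1 made up 12.5% of its pair with Rpl7, and Rps4l 7.88% of its pair with Rps4x. Rpl3l, the form of Rpl3 found in striated muscle, was at 0.52 FPKM against 138.9 FPKM for Rpl3. Rpl39l, the form of Rpl39 found in the testis, was at 0.12 FPKM against 122.5 FPKM for Rpl39 and was not tested. Rpl10l, the testis form of Rpl10, was listed at 0 in every 2022 library. The testis and muscle forms were thus near the lower end of the scale in this tissue. Rpl36al was 0.27% of its pair with Rpl36a in 2018 FPKM and 37.4% in 2022 TPM. The cause of that gap was not tested.

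Near-identical copies blurred several members. A copy was defined as another gene whose transcript matched at least 95% of the bases over at least 50% of the member's transcript. Of the 90 members 56 had such a copy, with 35 for Rpl7a and 23 each for Rpl29 and Rps2. There were 380 pairs of a member and a copy. A copy of several members counts for each, and members can be copies of each other. The coding sequences of Rps27 (chr3:90212522-90213651, minus strand) and Rps27rt (chr9:114982366-114982739, minus strand) were identical over all 255 bases. The first 30 bases are printed for both to show this identity, with the start codon in capitals.
Rps27: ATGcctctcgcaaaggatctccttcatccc
Rps27rt: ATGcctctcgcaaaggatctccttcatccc
In CPM by the raw library total (raw-total CPM), Rps27 had 88.1, 78.5 and 221 in sham 1 to 3 and 302, 258 and 242 in TBI 1 to 3. Rps27rt had 203, 214 and 52.5 in sham and 58.0, 114 and 182 in TBI. Within each group, the order of the libraries for Rps27rt was the reverse of that for Rps27. Summed over Rps27 and all its copies, the values were 292, 292 and 274 in sham and 361, 372 and 423 in TBI. The log2 fold change was 1.00 ± 0.34 for Rps27 alone and 0.38 with its copies, at the median of the members.

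Rps3a2 had the largest log2 fold change of all members, 3.51 ± 1.16, and rested on 1 library. Its values were 1.20, 1.10 and 0.53 CPM in sham and 29.4, 1.42 and 1.32 CPM in TBI. The parent gene Rps3a1 with all its copies had 310, 297 and 287 raw-total CPM in sham and 372, 369 and 462 in TBI, without overlap. Rps3a3, another pseudogene of the same parent, was at 0.44 to 0.63 CPM in sham and 2.44, 0.98 and 0.53 CPM in TBI, and its groups overlapped. Rps12, which has 22 copies, was at 53.8, 85.0 and 57.2 CPM in sham and 77.2, 88.8 and 162 CPM in TBI, a log2 fold change of 0.74 ± 0.28 alone and 0.76 with its copies. Taking every member together with its copies, 56 members passed the threshold in place of 54.

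**Figure D3:**
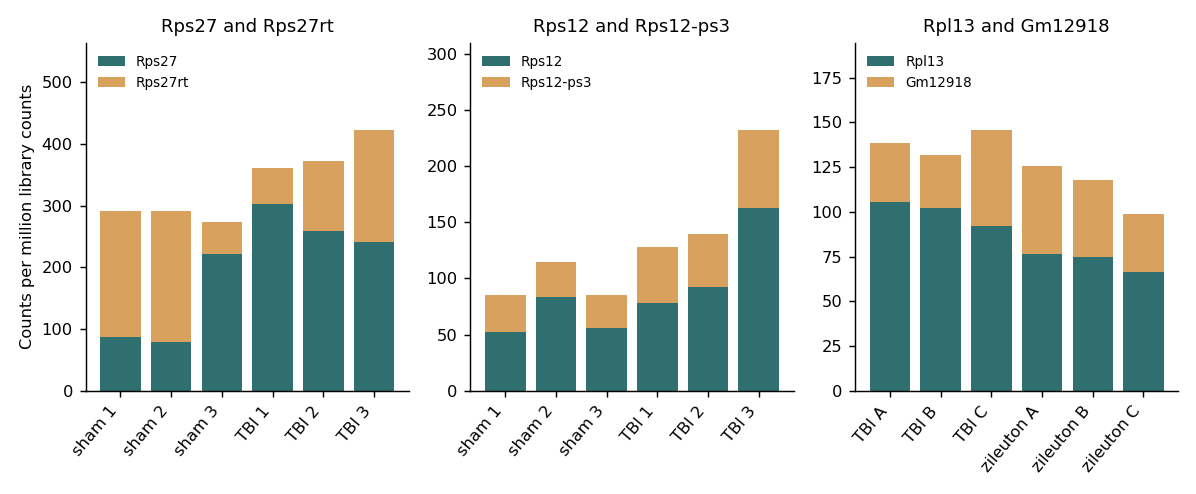
Stacked bars give raw-total CPM of a member (green) and of its main near-identical copy (tan) in each library, for Rps27 and Rps12 in the sham and TBI mice of 2018 and Rpl13 in the TBI and zileuton mice of 2022. The share of Rps27 ranges widely among libraries while the sums with all copies counted lie at 274 to 292 in sham and 361 to 423 in TBI.

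Ribosomal protein transcripts are short, so their values were set beside those of other genes of like length and level. In TBI versus sham, 1250 other genes lay between 499 and 1882 bp and between log2 CPM of 4.55 and 8.51, the range holding the 10th to the 90th percentile of members. Their median log2 fold change was 0.04, and 18.2% of them were called higher, against 62.8% of the members. Over all genes outside the group the median went with transcript length, from 0.11 under 500 bp to -0.15 at 6000 bp or more. By annotated length, members were above the other genes in each length class that held any. Medians were 0.41 against 0.10 from 500 to under 800 bp and 0.42 against 0.12 from 800 to under 1200 bp. The classes from 2000 bp up held 4 and 2 members. Whether the annotated transcript was the one measured was not checked. After the trend over length was removed within each library, the members' median was 0.27, and 78 of 86 were higher with 33 passing the threshold. The share of all genes passing in that fit is not reported here.

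**Figure D4:**
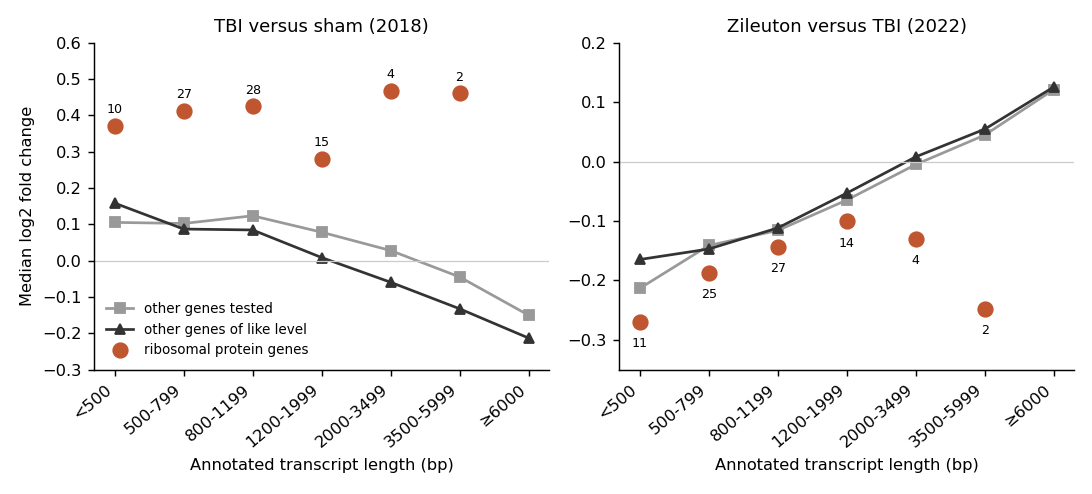
Median log2 fold change against annotated transcript length in bp, for ribosomal protein genes (orange circles, with their number), all other genes tested (grey squares) and other genes of like level (black triangles). For TBI versus sham members lie at 0.28 to 0.47 in every class they occupy, and for zileuton versus TBI they lie below a line that climbs from -0.21 to 0.12.

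Zileuton was compared with TBI in the 2022 libraries to ask whether the treated mice differed in the same transcripts. Ribosomal protein transcripts were slightly lower with zileuton, with a median fold of 0.878 over the 83 tested members (log2 fold change -0.19, interquartile range -0.26 to -0.10). The mean log2 CPM over members was 7.10, 7.12 and 7.35 in TBI A to C and 7.05, 6.97 and 6.96 in zileuton A to C. The difference was -0.20, beside standard deviations between mice of 0.14 in TBI and 0.05 with zileuton (n = 3 each). As a share of all counts, members took 1.53%, 1.51% and 1.80% in TBI and 1.53%, 1.40% and 1.38% with zileuton. TBI C stood apart, and 78 of the 83 members had their highest value in it. Zileuton A lay level with TBI A.

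No member passed the adjusted threshold by edgeR, a count of 0 of 83, as for 0% of all 17363 genes. At an unadjusted p of 0.05, 31 members (37.3%) were lower, against 3.9% of all genes, and 0 were higher, against 2.93%. The zileuton values lay below all TBI values for 34 members (41.0%), against 7.04% of all genes, and above them for 0 members, against 6.51%. DESeq2 called 2 members, Rpl13 and Rpl36a, and limma called 0. Without TBI C, 68 of 83 members were lower with a median log2 fold change of -0.10, and 16 were lower at the unadjusted p. That number was 12 without zileuton B and 12 without zileuton C. Shares of all genes under DESeq2, limma and these smaller fits are not reported here.

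The lower values were spread over both subunits. Of the large-subunit genes 45 of 46 were lower and 18 were so at the unadjusted p, and of the small-subunit genes 33 of 34 and 12. All 3 stalk genes were lower, 1 of them at the unadjusted p.

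The lowest member was the pseudogene Rps12l1, at 1.61, 1.80 and 3.60 CPM in TBI and 0.53, 0.53 and 1.36 CPM with zileuton (log2 fold change -1.54 ± 0.47). Rpl13, a large-subunit protein mutated in a skeletal dysplasia, was at 104, 104 and 91.6 CPM in TBI and 75.1, 75.8 and 67.5 CPM with zileuton. The groups were clear of each other, with a log2 fold change of -0.45 ± 0.08. Its processed pseudogene Gm12918 had 32.5, 29.4 and 53.5 raw-total CPM in TBI and 48.9, 42.8 and 32.6 with zileuton, and the log2 fold change of Rpl13 with all its copies was -0.27.

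Rps29 was at 146, 179 and 186 CPM in TBI and 128, 128 and 123 CPM with zileuton (log2 fold change -0.43 ± 0.10). Rpl36a was at 72.0, 76.7 and 79.8 CPM in TBI and 59.2, 58.8 and 57.4 CPM with zileuton (-0.38 ± 0.07). Rpl22l1 was at 15.0, 12.8 and 16.5 CPM in TBI and 10.6, 11.3 and 12.3 CPM with zileuton (-0.37 ± 0.13). In each of them every zileuton mouse was below every TBI mouse. Rpl30, which also binds its own transcript in yeast, was at 142, 134 and 169 CPM in TBI and 118, 114 and 112 CPM with zileuton (-0.37 ± 0.10).

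At the upper end, the 5 highest members lay between -0.03 and 0.02 on the log2 scale. Rps6 was at 260, 280 and 337 CPM in TBI and 307, 287 and 291 CPM with zileuton (0.01 ± 0.11, and -0.066 with its copies). Rpl10 was at 99.9, 93.5 and 123 CPM in TBI and 104, 105 and 104 CPM with zileuton (-0.01 ± 0.10). Rpsa was at 447, 409 and 522 CPM in TBI and 464, 448 and 445 CPM with zileuton (-0.02 ± 0.10). In these genes TBI C was the highest library, and most zileuton values lay between it and the other TBI mice. Rplp0 was at 328, 346 and 423 CPM in TBI and 408, 340 and 326 CPM with zileuton (-0.03 ± 0.13). Rpl12, at the base of the stalk, had a mean of 12.01 raw-total CPM over the 3 TBI mice, while its copy Gm10275 had 196, and together with its copy its log2 fold change was -0.10.

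Rps27l and Rps9, with large differences after TBI, had smaller ones in this comparison. Rps27l was at 10.5, 12.4 and 14.7 CPM in TBI and 11.3, 8.86 and 9.27 CPM with zileuton (log2 fold change -0.35 ± 0.16). That value lay below the members' lower quartile of -0.26. Rps9 was at 221, 233 and 298 CPM in TBI and 254, 224 and 217 CPM with zileuton (-0.11 ± 0.12). In both genes the groups overlapped.

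Values also went with transcript length in this comparison. The 604 other genes of like length and level had a median log2 fold change of -0.08, and 12.1% of them were lower at an unadjusted p of 0.05, against 37.3% of the members. Other genes went from -0.21 under 500 bp to 0.12 at 6000 bp or more, and members lay at -0.27 and -0.19 in the classes under 500 bp and from 500 to under 800 bp, where other genes lay at -0.21 and -0.14. From 800 to under 1200 bp the medians were -0.14 for members and -0.12 for other genes. With the trend over length removed, the members' median was -0.032, and 56 of 83 were lower, 11 of them at the unadjusted p. The share of all genes at that p in this fit is not reported here.

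The size of the difference was also read by features of the start region and by copies. The 25 tested members with a pyrimidine tract had a median log2 fold change of 0.44 after TBI and the 37 without had 0.36. Members with and without CGGAAG had medians of 0.37 and 0.43. The 33 members with no near-identical copy had a median of 0.37, and 31 of them were higher. The zileuton medians were -0.20 with and -0.17 without a tract, and -0.22 in the 32 members with no copy.

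Fau and Rack1, genes of the same machinery outside the symbol rule, were named after their values were seen. Their p-values are therefore given as a description. Fau, which encodes a ubiquitin-like protein fused to the small-subunit protein Rps30, rose from 201, 208 and 181 CPM in sham to 280, 278 and 374 CPM in TBI (log2 fold change 0.66 ± 0.12, edgeR adjusted p = 0.0045). Rack1, a scaffold on the small subunit, rose from 157, 155 and 147 CPM to 219, 199 and 279 CPM (0.60 ± 0.12, edgeR adjusted p = 0.0060). Under zileuton their log2 fold changes were -0.14 and -0.03, and neither passed.

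Other translation genes were taken as lists, some of which share genes, and their counts stand beside 16.8% of all genes higher and 11.2% lower. In the counts of these lists, rose and fell mean past an adjusted p of 0.05 by edgeR. Of 20 genes outside the symbol rule known for TOP messenger RNAs, which include Fau and Eef1a1, 11 rose and 0 fell after TBI. Their median log2 fold change was 0.32. Of the 13 of them in the promoter table, 5 (38.5%) held a pyrimidine tract in the start window. Of 15 elongation and release factors, 3 rose and 1 fell. Eef1a1, the elongation factor of most tissues, rose (0.50 ± 0.11, edgeR adjusted p = 0.0079), while Eef1a2, its form in neurons and muscle, fell by 0.48 on the log2 scale (SE 0.08, edgeR adjusted p = 0.0035). Eef1b2 and Eef1d, which reload that factor with GTP, also rose (0.35 ± 0.09 and 0.37 ± 0.09).

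The initiation factors and the assembly genes did not follow the ribosomal proteins as a group. Of 50 initiation genes tested, 2 rose and 3 fell, with a median of 0.06. Those that rose were Eif2ak2, the interferon-induced kinase PKR (2.27 ± 0.17), and Eif2s3y (0.36 ± 0.11), and those that fell were Eif4a2, Eif1ax and Eif4g3. Of 49 ribosome biogenesis genes, Npm1, a nucleolar chaperone, rose (0.30 ± 0.09) and Nvl, Nop58 and Utp15 fell, with a median of -0.02. Of 77 mitochondrial ribosomal proteins, 6 rose and 2 fell, with a median of 0.05.

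Upstream regulators were mixed. Of 21 regulators of ribosomal protein synthesis, 5 rose and 6 fell. Those that rose were Rps6ka1, a kinase of Rps6 (1.57 ± 0.11), Eif4ebp1, a repressor of cap-dependent translation (0.88 ± 0.21), Myc (0.58 ± 0.19), Trp53 (0.42 ± 0.09) and Ddit4, an inhibitor of mTOR signalling (0.37 ± 0.09). Those that fell were Tsc1, a brake on mTOR (log2 fold change -0.49), Mycn (-0.48), the kinase Mtor itself (-0.28), the S6 kinase Rps6kb1 (-0.25), Larp1, which binds TOP messenger RNAs (-0.23), and Rps6ka3 (-0.20). Of 16 genes of ribosome quality control, 2 rose and 2 fell, and of 71 nuclear genes of the respiratory chain and ATP synthase, 6 rose and 1 fell.

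Under zileuton none of these lists held a gene past the adjusted threshold by edgeR. The median log2 fold changes were -0.10 for mitochondrial ribosomal proteins, -0.09 for the other TOP genes, -0.05 for initiation and for elongation factors, and -0.07 for biogenesis genes. The respiratory chain genes, which are also short, had a median of -0.16. At an unadjusted p of 0.05 by edgeR, 26 of 71 were lower, against 3.9% of all genes, and 0 were higher, against 2.93%. Among the ribosomal protein genes 31 of 83 were lower at that threshold, and the difference between the lists was not tested.

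**Figure D5:**
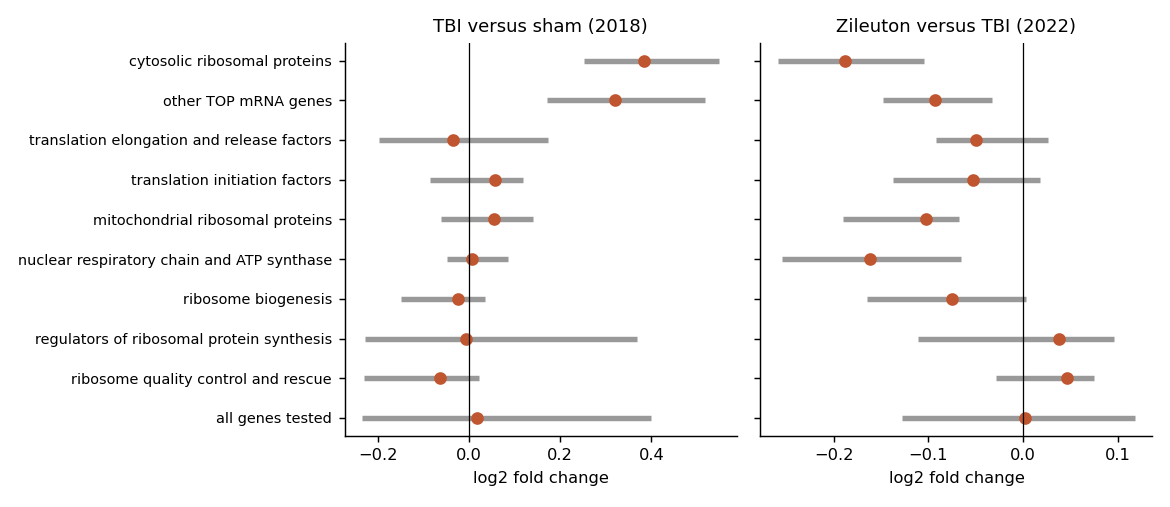
Points give the median log2 fold change of each gene list and bars its interquartile range, for TBI versus sham (left) and zileuton versus TBI (right), with all genes tested at the bottom. Cytosolic ribosomal proteins (0.38) and other TOP genes (0.32) lie highest on the left, and cytosolic ribosomal proteins (-0.19) and respiratory chain genes (-0.16) lie lowest on the right.

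Cell type markers differed between the groups and among libraries of a group. The summed level of 15 markers of microglia and macrophages was 575, 591 and 502 CPM in sham 1 to 3 and 2811, 3213 and 4349 CPM in TBI 1 to 3. Of these markers 15 of 15 rose past the adjusted threshold, against 16.8% of all genes. In 2022 it was 2618, 3689 and 4375 CPM in TBI A to C and 3837, 2865 and 2493 CPM in zileuton A to C, and 0 of 15 passed. The median log2 fold change of these markers with zileuton was -0.21, and 12 of 15 were lower. At an unadjusted p of 0.05 by edgeR 2 were lower, against 3.9% of all genes. In all 4 groups, the library with the highest microglial sum was also the library with the highest mean of the ribosomal protein genes, although TBI 1 had a higher member mean and a lower microglial sum than TBI 2. Of the neuronal markers 15 of 15 were lower after TBI and 7 passed the adjusted threshold, against 11.2% of all genes lower. Their sums were 15821 to 16125 CPM in sham and 10289 to 13511 CPM in TBI. The astrocyte markers were higher in 10 of 10 with 7 passing, and the oligodendrocyte markers in 10 of 10 with 5 passing, against 16.8% of all genes. The red blood cell genes were lower in 5 of 5 with 3 passing. The oligodendrocyte sum was 9793, 11937 and 6543 CPM in TBI 1 to 3, lowest where members were highest. Between zileuton and TBI the 5 red blood cell genes had a median log2 fold change of -0.52, with sums of 342, 216 and 283 CPM in TBI and 195, 206 and 191 CPM with zileuton, and 4 of 5 were lower at an unadjusted p of 0.05. The oligodendrocyte markers had a median of 0.27, with 10 of 10 higher and 0 at that threshold. The part of these cell types in the level of the ribosomal protein genes was not tested.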

How the data were processed

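Poly-A RNA of 12 libraries in 4 groups of 3 mice was analysed. For 2018 the authors deposited read counts per gene with FPKM values, and for 2022 they deposited estimated counts with TPM values. The submitters' processing notes name HISAT2, Subread, featureCounts, DESeq2 and GRCm39, with no versions. The estimated counts were rounded. Among 2018 counts from 1 to 20, 63.6% were even. Rows with no symbol were 889 of 35697 (0.14% of counts) and 3556 of 55637 (0.62%). The number of per-sample columns not used was 0.

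Each batch was fitted alone in edgeR 4.0.16 (R 4.3.3) with TMM factors, filterByExpr and the quasi-likelihood test, and p-values were Benjamini-Hochberg adjusted over all genes tested. Nothing states more than separate mice, so p-values measure the spread between them. SE is the log2 fold change divided by the square root of F. CPM uses TMM library sizes, and raw-total CPM the library totals. Alternatives were DESeq2 1.42.0, limma 3.58.1 on log2(FPKM or TPM + 1 or 0.1) with a mean of at least 0.5, DESeq2 size factors, library totals, TMM factors without the members, no filter, a lowess trend over length (span 0.3) removed, the replicate number as a block, and leaving out each library. Sums with near-identical copies (other members not added in) and leaving out pseudogenes were chosen after seeing the data. The main edgeR fit was also run on simulated counts with known changes, and the other steps were not.

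Symbols were matched by gene identifier in a gene name table. Positions, lengths and copies (blastn 2.17.0) came from GENCODE M21 on GRCm38, not the files' build, and no position was taken from the files. The members and lists were chosen with earlier results of these data known. Genes were named by rule: in each subunit the 3 with the highest mean FPKM of 2018, the 5 highest and 5 lowest log2 fold changes in each comparison, paralogues with their partners, the stalk genes, Rpsa, Rps3, Rps6, Rps19, Rps27a, Rpl5 and Rpl11, and in other lists the calls where 5 or fewer. Other members, with Fau, Rack1 and the regulators that fell, were named after their values were seen. Same-numbered libraries of 2 groups correlated at -0.02, -0.09 and -0.03 in 2018 and at -0.28, 0.06 and -0.28 in 2022. TBI A and zileuton C correlated at 0.31. With 3 libraries a group such values cannot exclude a pairing, and no label states one.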

Additional observations from a re-analysis of the deposited data

How the results depend on the processing

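The number of ribosomal protein genes called, TBI versus sham, was 54, and was 43 to 63 in every alternative except with the length trend removed (33) and when single libraries were left out (28 to 59, lowest without sham 3), with 0 lower in all of them. The median log2 fold change of the members, TBI versus sham, was 0.38, with 0.27 after removing the length trend and 0.29 to 0.44 without single libraries. The number of other translation genes called, TBI versus sham, was 43 (26 higher, 17 lower), with 22 under the replicate block, 20 to 30 without single libraries and 15 higher and 18 lower with the length trend removed. The ribosomal protein genes called, zileuton versus TBI, were 0 in every alternative except DESeq2 (2). The median log2 fold change of the members, zileuton versus TBI, was -0.19, with -0.032 after removing the length trend, -0.10 by limma with either pseudocount and -0.23 to -0.10 without single libraries. The ribosomal protein genes at an unadjusted p under 0.05, zileuton versus TBI, were 31, with 10 by limma with either pseudocount, 11 after removing the length trend, 19 under the replicate block and 12 to 37 without single libraries. The other translation genes at an unadjusted p under 0.05, zileuton versus TBI, were 27, with 16 under the replicate block and 14 to 36 without single libraries. No label states that shared replicate numbers pair mice, and under the block 43 ribosomal protein genes were called in TBI versus sham. Fits without a library have fewer mice. In TBI versus sham, 59 ribosomal protein genes were called without TBI 1, 56 without TBI 2 and 28 without sham 3. The cause of the differences among settings was not tested. Shares of all genes under the alternatives are not reported here. Members near 0 that passed no threshold (Rpl13a and Rpl21 after TBI, Rps6 with zileuton) changed sign in some alternatives. With 3 mice a group, small differences of single genes were not detectable, and reads shared with copies limit the values of single members.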
